A study of Homo sapiens with 4 samples.

Results

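A set of 10 nuclear genes whose products copy, transcribe or stabilise the RNA of mitochondrial DNA were followed in TE5 cells with and without stable overexpression of the transcription factor ETS1. They were TFAM, TFB1M, TFB2M, POLRMT, POLG, POLG2, C10orf2 (the older symbol of TWNK), LRPPRC, SLIRP and NRF1. The genes were chosen by name for their known roles, but with earlier results of these data known. All 10 were found among the 55764 gene names of the deposited table. TE5 is a human oesophageal squamous cell carcinoma line. There were 2 libraries from cells carrying an ETS1 expression vector under the CMV promoter, labelled as ETS1 overexpression, and 2 from cells carrying the empty backbone, labelled WT; per the labels, vectors were delivered by lentivirus packaged in HEK293T cells, and the cells were selected before bulk RNA sequencing. The labels number the libraries 1 and 2 in each group and do not say whether they came from separate infections or cultures, so p-values measure only the spread between these libraries, which may be technical. Whether the ETS1 cells were a clone or a pool is not given in the sources used here.

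Mitochondrial DNA is a small circle that encodes respiratory chain subunits, ribosomal RNAs and transfer RNAs, and everything that copies or reads it is encoded in the nucleus. TFAM packs the circle and bends it at promoters, TFB2M melts the promoter, and POLRMT, a single-subunit RNA polymerase, makes the transcript. TFB1M, the paralog of TFB2M, methylates the ribosomal RNA of the small mitochondrial ribosomal subunit. POLG, with its accessory subunit POLG2, and the helicase TWNK form the core of the replication machinery. LRPPRC and SLIRP bind each other and stabilise mitochondrial mRNAs. NRF1 is a nuclear transcription factor known for binding promoters of genes of this kind, and GABPA, a member of the ETS family like ETS1, is known as a second such regulator.

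Promoter letters are shown first because NRF1 is a member and ETS1 the factor that was overexpressed. RefSeq windows on GRCh38.p14, from 250 bases before to 50 bases after the start, were found for 8 of the 10 members; none was matched for C10orf2 and NRF1. Both strands were searched for CGCANGCGC, an NRF1-type motif, and for CGGAAG, an ETS-type motif; the letters were chosen after the windows had been seen, and matches of the NRF1-type letters on the 2 strands can overlap. NRF1-type letters stood in 5 of the 8 windows (TFAM, TFB1M, TFB2M, POLRMT and POLG2), against 7.47% of all 35116 RefSeq promoter windows and 15.8% of the 8924 windows of tested genes. ETS-type letters stood in 6 of 8 (TFB1M, TFB2M, POLRMT, POLG2, LRPPRC and SLIRP), against 19.5% and 33.8%. Both kinds stood in 4 windows (TFB1M, TFB2M, POLRMT and POLG2), against 2.46% and 5.92%, and POLG had neither. These are matches of letters, not measured binding. Since the letters were chosen after these windows had been seen, the comparison with the shares is a description and not a test of enrichment. The stretches before the start of TFB1M, the one member that rose, and of POLG2, which fell, are given at length, and the others as 30-base windows, 5′ to 3′ on the gene's strand, with matches in capitals. An ETS-type match of TFB1M 178 bases before the start and one of TFB2M after the start are not printed.
TFB1M, chr6:155314494-155314624, minus strand: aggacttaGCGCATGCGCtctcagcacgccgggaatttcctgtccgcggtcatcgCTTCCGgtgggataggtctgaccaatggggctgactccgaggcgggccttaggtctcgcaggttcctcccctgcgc
POLG2, chr17:64497055-64497194, minus strand: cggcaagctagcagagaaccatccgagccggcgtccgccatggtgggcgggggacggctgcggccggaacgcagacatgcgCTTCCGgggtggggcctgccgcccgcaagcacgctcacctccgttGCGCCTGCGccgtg
TFB2M, chr1:246566300-246566329, minus strand, ETS-type: gagccgaggCGGAAGCGGAAGtgagggaga
TFB2M, chr1:246566258-246566287, minus strand, NRF1-type: ctccgctgttCGCATGCGCaggctctagtg
POLRMT, chr19:633613-633642, minus strand, ETS-type: cctgggagtctaCTTCCGgctggggtttcc
POLRMT, chr19:633539-633568, minus strand, NRF1-type: ggcgcggGCGCATGCGCAGGCGCgggccgg
TFAM, chr10:58385337-58385366, plus strand, NRF1-type: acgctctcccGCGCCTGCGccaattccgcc
LRPPRC, chr2:43996173-43996202, minus strand, ETS-type: ccagatcggagaCGGAAGacggaaaagaaa
SLIRP, chr14:77708016-77708045, plus strand, ETS-type: taccctctgatcCGGAAGcagattctctcg

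**Figure D1:**
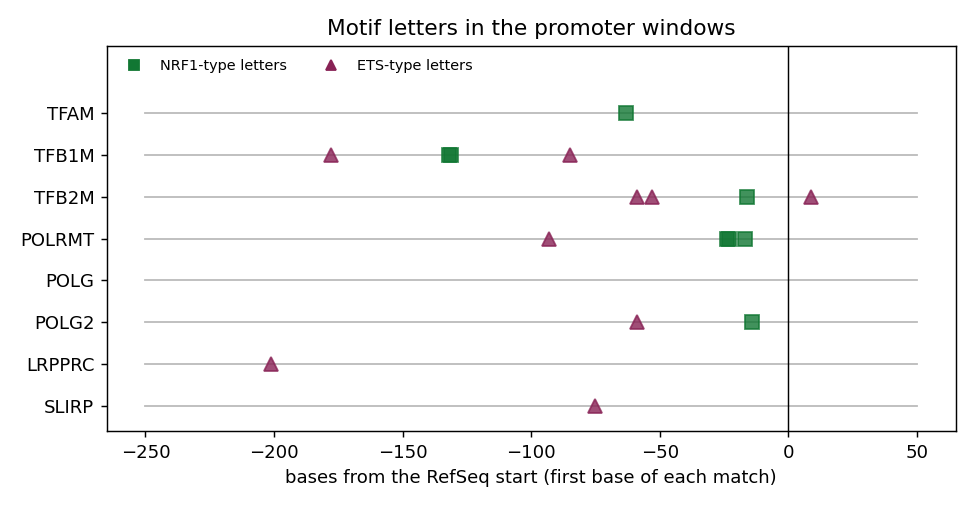
Positions of NRF1-type letters (squares) and ETS-type letters (triangles) in the RefSeq promoter windows of 8 members; the x axis is the distance in bases from the start, negative before it, and each symbol marks the first base of a match. TFB1M, TFB2M, POLRMT and POLG2 hold both kinds and POLG holds neither.

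Levels are given in FPKM, a read count divided by gene length and by the size of the library, as deposited by the authors. The libraries held 40356722 and 44119605 recovered reads in the controls and 57269982 and 56502877 in the ETS1 group, so the ETS1 libraries were 1.35 times as deep. ETS1 itself, the check of the labels, stood at 0.491 and 0.509 FPKM in the controls and at 1.84 and 1.87 FPKM in the ETS1 libraries, 3.71 times as high. Of the 7 squamous markers, KRT5, KRT14, KRT6A and TP63 had no FPKM above 0 in the controls and did not exceed 0.0165 FPKM with ETS1, and DSG3 and PKP1 stayed at or under 0.00640 FPKM, so the squamous cell type rests on the labels. SOX2, the one squamous marker tested, was higher with ETS1 (2.72 and 3.13 against 3.52 and 3.82 FPKM, limma adjusted p 0.0301), but this depended on the fit. It did not pass under quantile normalization, with the local chromosomal median removed, or in the authors' deposited table (adjusted p 0.0688 there). Without one library at a time the log2 change of SOX2 ran from 0.18 to 0.33. Of the 5 simple epithelial markers, KRT8 was higher with ETS1 by limma (3.91 and 3.87 against 6.48 and 6.59 FPKM, adjusted p 0.000591) and KRT18 lower (10.2 and 10.5 against 8.35 and 8.29 FPKM, adjusted p 0.00223). EPCAM (1.37 and 1.36 against 0.915 and 1.12 FPKM) did not pass (limma adjusted p 0.0525), and CDH1 (0.571 and 0.567 against 1.08 and 0.916 FPKM) and KRT19 (at most 0.0224 FPKM) were not tested. Of the fibroblast markers, COL1A1 was higher with ETS1 (2.17 and 2.06 against 2.81 and 2.88 FPKM, limma adjusted p 0.00599). COL1A2 did not exceed 0.00157 FPKM, DCN 0.0122 FPKM and PDGFRB 0.0570 FPKM. LUM had 0.00822 and 0.0376 FPKM in the controls and 0.168 and 0.141 FPKM with ETS1. Of the leukocyte markers, PTPRC did not exceed 0.0117 FPKM and CD3E 0.0696 FPKM, and CD14 ran from 0.301 to 0.372 FPKM. Apart from COL1A1, the fibroblast and leukocyte markers given here were not tested in the main fit. The part of these markers in the results was not tested.

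All 10 members were expressed and passed the filter of a mean of at least 1 FPKM. Their values ran from 4.71 FPKM (NRF1) to 47.1 FPKM (SLIRP), from 502 to 13148 reads per library, against a median of 6.33 FPKM over the 14306 tested genes. In the controls the order by mean FPKM was SLIRP, LRPPRC, TFAM, C10orf2, POLRMT, POLG, POLG2, TFB1M, TFB2M and NRF1. In the ETS1 libraries POLG and POLRMT changed places, and so did POLG2 and TFB1M. Neighbours in the order that did not differ by more than 2 SD (the larger of their SDs) were POLRMT and POLG in both groups, TFB1M and TFB2M in the controls, and TFB2M and NRF1 in the ETS1 libraries.

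**Figure D2:**
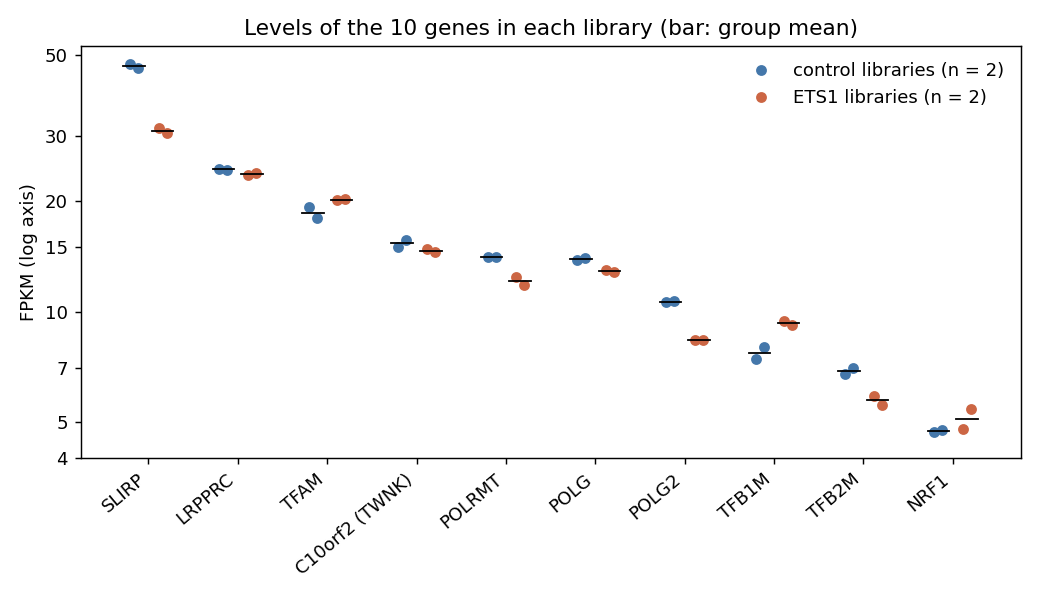
FPKM (y axis, log scale) of each of the 10 members in each library, controls in blue and ETS1 libraries in orange, with a bar at each group mean (n = 2 libraries each). SLIRP fell from a mean of 46.5 to 31.1 FPKM, and TFB1M moved above POLG2.

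With ETS1 overexpressed, 5 of the 10 members were lower (SLIRP, POLG2, TFB2M, POLRMT and POLG), TFB1M was higher, and TFAM, NRF1, C10orf2 and LRPPRC did not pass limma at an adjusted p under 0.05. The same test called 59.1% of all tested genes, 28.4% of them lower and 30.7% higher, so the share of members called, 60.0%, was near the background. Without ETS1 replicate 2, 3 members were called lower; 2 were called higher without control replicate 1, and 0 by limma without ETS1 replicate 1 (2 at an unadjusted p under 0.05). The median log2 change of the members was -0.081, against 0.016 over all tested genes. Both ETS1 values lay outside the range of the controls for all 10 members, 7 below and 3 above, where this held for 82.0% of all tested genes (38.9% below and 43.1% above). With 2 libraries against 2, the exact permutation test of any member returned p = 0.333 (two-sided), which is the lowest value possible with 6 arrangements, so the adjusted p-values rest on the variance that limma shares across genes. Changes are on the log2(FPKM + 1) scale. In bulk RNA, a different share of cells and a different amount of RNA per cell cannot be told apart.

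**Figure D3:**
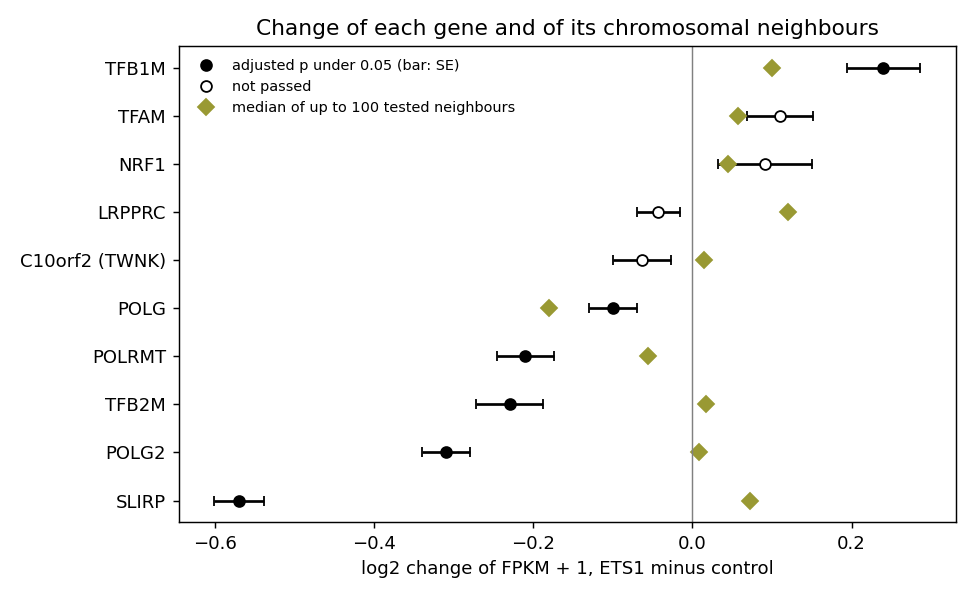
Change of each member on the log2(FPKM + 1) scale, ETS1 minus control (x axis; circles with 1 standard error, filled where the adjusted p was under 0.05), and the median change of up to 100 tested neighbours on the same chromosome (diamonds). SLIRP, at -0.57, lies far to the left of its neighbours' median of 0.072, while POLG, at -0.10, lies to the right of its neighbours' median of -0.18.

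Among the genes of transcription, POLRMT (positions here and below are from GENCODE 29 on GRCh38: chromosome 19, 617224 to 633604, minus strand) had 14.1 and 14.1 FPKM in the controls and 12.4 and 11.8 FPKM in the ETS1 libraries. The polymerase was thus lower in both ETS1 libraries, by 14.2% of the control mean. The log2 change was -0.21 (SE 0.0359, limma adjusted p 0.00743). The pseudogene POLRMTP1, whose reads the counting could split from those of POLRMT, was listed at 1.39 and 1.29 FPKM in the controls and at 1.15 and 1.06 FPKM in the ETS1 libraries.

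TFB2M (chromosome 1, 246540560 to 246566324, minus strand), the promoter-melting partner of POLRMT, had 6.74 and 7.02 FPKM in the controls against 5.88 and 5.58 FPKM with ETS1. Its level fell by 16.7%, or -0.23 on the log2 scale (SE 0.0425, limma adjusted p 0.00929). It also had the fewest reads among the members, 502 and 572 in the controls and 622 and 583 with ETS1, and the counting error of the shallowest library was 4.46%. Without ETS1 replicate 2 the change was -0.20 and did not pass (limma adjusted p 0.0574).

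TFB1M (chromosome 6, 155257509 to 155314493, minus strand), the paralog that modifies ribosomal RNA, moved the other way. It had 7.41 and 8.01 FPKM in the controls and 9.44 and 9.17 FPKM in the ETS1 libraries, a rise of 20.6% (log2 change 0.24, SE 0.0463, limma adjusted p 0.00980). Without ETS1 replicate 1 the rise was 0.22 and did not pass (adjusted p 0.0525). In GENCODE 29, 15.1% of its exon bases are shared with TIAM2 on the opposite strand, and the use of strand in the authors' counting is not given in the sources used here, so reads of the 2 genes over that stretch cannot be told apart.

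TFAM (chromosome 10, 58385022 to 58399221, plus strand), the packaging factor, had 19.3 and 17.95 FPKM in the controls and 20.1 and 20.2 FPKM with ETS1. Both ETS1 values were above both controls, but the controls differed from each other by more than the nearer control differed from the ETS1 libraries. The log2 change of 0.11 (standard error 0.0417) had a limma adjusted p of 0.0774, and this call depended on the fit. Without control replicate 1 the change was 0.16 and passed (adjusted p 0.0209); with a trend on gene length and GC content removed it was -0.051 (adjusted p 0.206).

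The members of the replication group were lower or did not pass. POLG2 (chromosome 17, 64477785 to 64497036, minus strand), the accessory subunit that keeps the polymerase on its template, had 10.6 and 10.7 FPKM in the controls and 8.39 and 8.36 FPKM with ETS1. Replicates of POLG2 were close in both groups (SD 0.0459 and 0.0156 FPKM, n = 2 each), and the groups were 21.3% apart. The log2 change of -0.31 (SE 0.0306, limma adjusted p 0.00152) was past the threshold in each of the 16 alternative fits.

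POLG (chromosome 15, 89305198 to 89334861, minus strand), the catalytic subunit, had 13.8 and 13.99 FPKM in the controls and 13.003 and 12.8 FPKM with ETS1. This fall of 6.95% was the smallest that passed, with a log2 change of -0.10 (SE 0.0299, limma adjusted p 0.0426). Genes around it were lower as well: the 390 tested genes of chromosome 15 had a median of -0.23, and the 100 nearest a median of -0.18. With that local median removed POLG reversed to 0.073 (adjusted p 0.0884), and it also lost the threshold when any one of the 4 libraries was left out (-0.11 to -0.086, adjusted p 0.0695 to 0.216). Of its exon bases, 9.55% are shared with FANCI on the opposite strand.

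C10orf2, the helicase gene TWNK (chromosome 10, 100987367 to 100994401, plus strand), had 14.96 and 15.7 FPKM in the controls and 14.8 and 14.5 FPKM with ETS1. The groups were separated by less than the distance between the controls, and the log2 change of -0.064 (standard error 0.0365) did not pass (limma adjusted p 0.186). It passed under none of the 16 alternatives.

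SLIRP (chromosome 14, 77708071 to 77761104, plus strand), a small RNA-binding protein, had the largest change. It had 47.1 and 45.9 FPKM in the controls and 31.6 and 30.6 FPKM with ETS1, a fall of 33.1%, from 4976 and 5300 reads to 4743 and 4524 reads in the deeper ETS1 libraries. The log2 change was -0.57 (SE 0.0316, limma adjusted p 0.000557), at percentile 4.20 of all tested genes. It passed under all 16 alternatives, with adjusted p-values up to 0.0196, and lay at percentile 2.00 of its 100 nearest tested genes, whose median was 0.072. The gene model shares 18.7% of its exon bases with C14orf178 on the same strand and 8.04% with SNW1 on the opposite strand.

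LRPPRC (chromosome 2, 43886508 to 43996005, minus strand), the large pentatricopeptide protein that SLIRP binds, had 24.5 and 24.3 FPKM in the controls and 23.5 and 23.8 FPKM with ETS1. The values of LRPPRC were lower by 3.08%, with a log2 change of -0.043 (standard error 0.0272) that did not pass (limma adjusted p 0.225). Its direction depended on the scaling: quantile normalization gave 0.031 (adjusted p 0.375). The neighbourhood of LRPPRC on chromosome 2 had a median of 0.12, and with that removed the change was -0.15 and passed (adjusted p 0.00843).

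NRF1 (chromosome 7, 129611714 to 129757082, plus strand), the regulator, was the least abundant member, with 4.71 and 4.75 FPKM in the controls and 4.80 and 5.42 FPKM with ETS1. One ETS1 library lay close to the controls and the other above them. The log2 change of 0.091 (standard error 0.0591) did not pass (limma adjusted p 0.240), and leaving out one library at a time moved it between 0.017 and 0.16.

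In the authors' deposited table, 5 of the 10 members were lower and 1 higher at its adjusted p under 0.05, where it calls 51.2% of its 15683 genes with an adjusted p, 25.9% lower and 25.3% higher. The authors' deposited table gives SLIRP a log2 fold change of -0.60 (adjusted p 4.63e-30), POLG2 -0.35 (adjusted p 4.87e-06), POLRMT -0.24 (adjusted p 6.76e-05), TFB2M -0.25 (adjusted p 0.0347), POLG -0.12 (adjusted p 0.0434) and TFB1M 0.23 (adjusted p 0.0140).

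Partner genes were compared within each library, which removes the scaling between libraries. The FPKM ratio of LRPPRC to SLIRP was 0.521 and 0.530 in the controls and 0.744 and 0.779 in the ETS1 libraries, a difference of 0.54 on the log2 scale, where SLIRP fell and LRPPRC did not pass. The ratio of TFB2M to TFB1M was 0.909 and 0.876 in the controls and 0.623 and 0.609 with ETS1, a log2 difference of -0.54 between the promoter factor and its methyltransferase paralog. The groups were far apart in both ratios, with SDs of at most 0.0480 on the log2 scale (n = 2). The ratio of POLRMT to TFAM was 0.729 and 0.784 in the controls and 0.616 and 0.582 with ETS1, a log2 difference of -0.34. The ratio of POLG to POLG2 was 1.30 and 1.31 in the controls and 1.55 and 1.53 with ETS1, a log2 difference of 0.24. None of the 4 ratios overlapped between groups, where 82.0% of all tested genes, taken singly, did not overlap either. The share among ratios of other gene pairs was not computed. For each ratio the exact permutation test gave the smallest two-sided p it allows, 0.333.

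**Figure D4:**
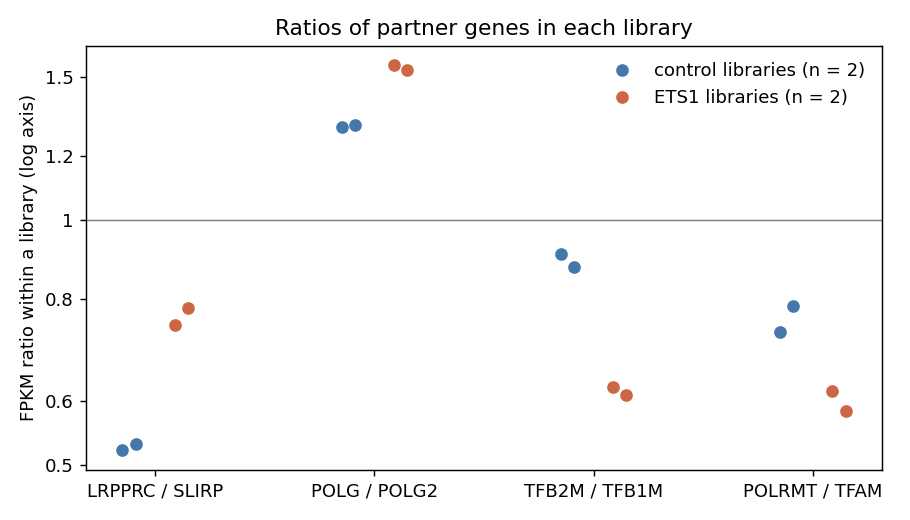
FPKM ratio of 4 pairs of partner genes within each library (y axis, log scale; controls in blue, ETS1 libraries in orange, n = 2 each; the grey line marks equal FPKM). The ratio of LRPPRC to SLIRP was 0.521 and 0.530 in the controls against 0.744 and 0.779 with ETS1, and that of TFB2M to TFB1M 0.909 and 0.876 against 0.623 and 0.609.

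The RNAs that these proteins make and stabilise were read from the same libraries. All 15 mitochondrially encoded mRNAs and ribosomal RNAs listed were called higher by limma, with log2 changes from 0.32 to 1.37 and a median of 0.94, although under quantile normalization 12 were higher, MT-ATP6 and MT-ND2 did not pass and MT-ND3 was lower (-0.29), and with no filter 5 were called. MT-ND1 had 1185 and 1214 FPKM in the controls and 3180.4 and 3024 FPKM with ETS1, the largest of these rises, and MT-ND3 had 3336 and 3167 against 3948 and 4199.6 FPKM, the smallest. MT-ND6, the one mRNA read from the other strand of the circle, rose by 0.66 (limma adjusted p 0.00116), and the ribosomal RNA genes MT-RNR1 and MT-RNR2 by 0.41 and 1.07. Mitochondrially encoded genes took 3.03% and 3.06% of recovered reads in the controls and 5.57% and 5.71% with ETS1. With these reads left out of the scaling, an alternative chosen after seeing the data, the median of all tested genes moved from 0.016 to 0.049. The log2 changes were then -0.53 for SLIRP, -0.28 for POLG2, -0.19 for TFB2M and -0.17 for POLRMT, all past the threshold, while POLG at -0.060 (limma adjusted p 0.140) was not.

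A wider set of 69 genes in 5 companion lists was described in the same way. Of 66 that were tested, 18 were higher, 26 lower and 22 did not pass, which is 66.7% called against 59.1% of all genes; the median log2 change was -0.066. Without ETS1 replicate 2, 11 were called higher and 19 lower.

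In replication and maintenance of mitochondrial DNA, 5 of 17 tested genes rose and 7 fell. SSBP1, which coats single-stranded mitochondrial DNA, had 62.9 and 63.7 FPKM in the controls and 40.7 and 38.9 FPKM with ETS1, a log2 change of -0.66 (limma adjusted p 0.000482), slightly larger than that of SLIRP. The mitochondrial topoisomerase TOP1MT (-0.57), the membrane ATPase ATAD3A (-0.50) and the protease chaperone CLPX (-0.47) fell as well. TOP1MT lies on chromosome 8, where tested genes had a median of -0.16, and CLPX on chromosome 15 with its median of -0.23. These 4 passed under all 16 alternatives. The median of the list was -0.037, and its sign turned (0.0018) with mitochondrial reads left out of the scaling.

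Of the genes of nucleotide supply, 3 of 12 tested rose and 5 fell, but 1 rose and 1 fell without ETS1 replicate 2, and 1 rose and 3 fell without ETS1 replicate 1. Without either control replicate, 3 were called lower. The p53-regulated ribonucleotide reductase subunit RRM2B (0.25) and RRM2 (0.17), the S-phase subunit, rose, and ABAT (-0.39) and the mitochondrial nucleotidase NT5M (-0.18) fell. All 4 lost the threshold with no filter on low values, which was the one such setting of 15 for ABAT. In all, RRM2B lost it under 2 of 16 alternatives, RRM2 under 4 and NT5M under 6. TYMP, at 0.499 to 0.840 FPKM, was under the filter.

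Among elongation and termination factors (median -0.046, or 0.0075 without control replicate 1), 2 of 7 rose and 2 fell. With the local chromosomal median removed 0 rose and 3 fell, and with the length and GC trend removed 1 rose and 4 fell. MRPL12, a ribosomal protein also reported to bind POLRMT, fell by 0.46 and the termination factor family member MTERFD1 (MTERF3) by 0.24; MTERFD1 lost the threshold with no filter. MTERFD2 (MTERF4) rose by 0.41, but with the local chromosomal median removed its sign turned and its limma adjusted p was 0.902. MTERF (MTERF1) rose by 0.17, but lost the threshold under 10 of 15 alternatives, and its sign turned with the length and GC trend removed (limma adjusted p 0.924). For TEFM, the elongation factor, the log2 difference was -0.046 (limma adjusted p 0.460) and the groups overlapped.

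In RNA processing and decay, 4 of 18 tested genes rose and 9 fell. Subunits of the mitochondrial tRNA-cleaving complex moved in opposite directions: HSD17B10 went from 131 and 127 FPKM to 88.03 and 85.1 FPKM (log2 change -0.57) and TRMT10C from 24.3 and 22.7 FPKM to 33.3 and 32.9 FPKM (log2 change 0.48). The deadenylase PDE12 rose by 0.34 and the oligoribonuclease REXO2 fell by 0.33, both lost with no filter. The gene of the catalytic subunit of the tRNA-cleaving complex, KIAA0391 (PRORP), was listed at 0.0714 to 0.104 FPKM, under the filter.

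Of the nuclear regulators, 4 of 12 tested rose and 3 fell, but 2 rose and 5 fell with the length and GC trend removed. By voom on recovered reads 5 rose and 5 fell. The median of -0.070 turned to 0.052 with the local chromosomal median removed. GABPA rose from 7.997 and 6.90 FPKM to 10.8 and 12.9 FPKM (log2 change 0.60, standard error 0.101, limma adjusted p 0.00671), and SP1 (0.28) and CREB1 (0.24) rose with it, while ESRRA, a nuclear receptor of mitochondrial genes, fell by 0.33. GABPA and ESRRA lost the threshold only with no filter. CREB1 lost it under 3 of 15 alternatives, and its sign turned with the length and GC trend removed. PPARGC1A, the coactivator PGC-1alpha, was under the filter at 0.539 and 0.513 FPKM in the controls and 0.209 and 0.195 FPKM with ETS1.

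**Figure D5:**
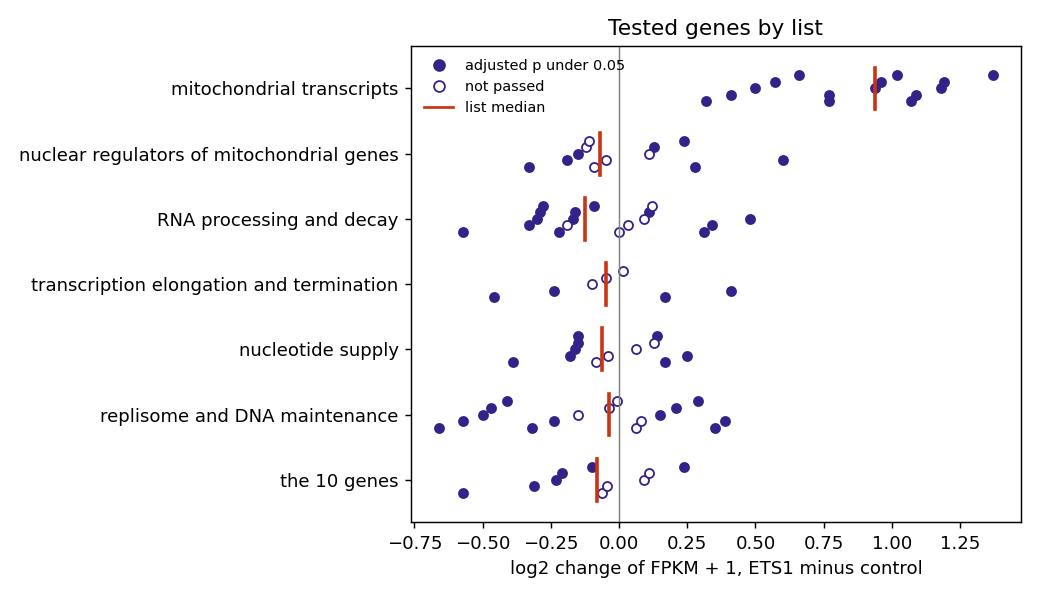
Change on the log2(FPKM + 1) scale, ETS1 minus control (x axis), of each tested gene in the 10-gene set, the 5 companion lists and the mitochondrial transcripts (filled where the adjusted p was under 0.05; red line, list median). The 15 mitochondrial transcripts lie between 0.32 and 1.37, while the 10 genes and the companion lists spread to both sides of 0.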

How the data were processed

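The authors deposited FPKM values for 55764 genes in 4 libraries; HISAT2, HTSeq and DESeq2 and the build hg38 (GRCh38) are named in the submitters' processing notes. A deposited comparison table of 16652 genes adds the authors' mean normalized count (a signal averaged over libraries), log2 fold change and p-value columns, per the file headers. The annotation and strand use are not given in the sources used here. Reads were recovered from steps in the FPKM of low genes together with the mean normalized counts; 99.3% to 99.9% of values, by class of mean normalized count, fell within 0.05 of a whole number. The replicates of a group differed by more than counting noise (mean chi-square per gene 3.94 in both groups).

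The main test was limma 3.58.1 in R 4.3.3 on log2(FPKM + 1) with a group term, an intensity trend and 2 residual degrees of freedom (2.84 prior), over the 14306 genes that averaged 1 FPKM or more, two-sided, Benjamini-Hochberg adjusted, threshold 0.05. On simulated data it recovered 30% of 50 genes changed 1.2-fold and 90% of 50 genes changed 1.5-fold, so many small changes would not pass. The simulation changed far fewer genes than were called here, so these shares may differ in the data. Alternatives were another pseudocount (0.1), no filter, a filter at 5 FPKM, quantile normalization, trimmed-mean scaling (TMM), a replicate block, no intensity trend, the authors' deposited values, removal of the local chromosomal median (50 genes each side) and leaving out each library; chosen after seeing the data were scaling without mitochondrial reads, removal of a length and GC trend, and voom on the reads recovered. Positions come from GENCODE 29 by gene name, matched for 84.0% of tested genes, and promoters from RefSeq. The members and lists were chosen with earlier results of these data known. The text names all 10 members, ETS1, markers, the mitochondrial transcripts and, of each companion list, the 4 tested genes with the largest absolute change and any under a mean of 1 FPKM; TEFM, POLRMTP1 and the motif letters were chosen after their values were seen. The result for 1 marker gene is not reported here.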

Additional observations from a re-analysis of the deposited data

How the results depend on the processing

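The number of members called higher, 1 as reported, was 0 by limma with no filter (1 at an unadjusted p under 0.05), 2 under quantile normalization, 2 under voom on recovered reads and 2 with mitochondrial reads left out of the scaling. The number called lower, 5, was 2 with no filter, which tests 55764 genes; companion genes were then 7 higher and 14 lower. Leaving out one library at a time gave 0 to 2 members higher (the 0, without ETS1 replicate 1, was 2 at an unadjusted p under 0.05), 3 to 4 lower, 11 to 17 companion genes higher and 19 to 24 lower; the 11 came without ETS1 replicate 2. A lone library in a group is assumed to vary like the others. SLIRP and POLG2 kept their direction and side of the threshold under all 16 alternatives, C10orf2 did not pass under any, and NRF1 under none of the 15 that tested it. TFAM passed under quantile normalization (0.16, adjusted p 0.0250), voom (0.12, 0.0249) and scaling without mitochondrial reads (0.15, 0.0331), and reversed with the length and GC trend removed (-0.051). With no filter TFB1M (0.24, adjusted p 0.129), TFB2M (-0.23, 0.0973), POLRMT (-0.21, 0.0830) and POLG (-0.10, 0.0777) lost the threshold. POLG also lost it under quantile normalization (-0.086, 0.0713), with no intensity trend (-0.10, 0.0672) and without mitochondrial reads (-0.060, 0.140), and reversed with the local median removed (0.073). LRPPRC reversed under quantile normalization (0.031) and passed with the local median (-0.15, 0.00843) or the length and GC trend (-0.20, 0.00175) removed. The cause of these differences between fits was not tested.

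Without one library at a time the changes ran from 0.059 to 0.16 for TFAM, 0.19 to 0.29 for TFB1M, -0.26 to -0.20 for TFB2M and -0.11 to -0.086 for POLG. Same-numbered libraries did not deviate together (r = -0.0456 across genes), so the numbers were not taken as pairs; with the replicate block POLG was -0.10 with an adjusted p of 0.103, and 4 members were called lower. All genes called went from 4394 higher and 4057 lower to 2167 and 1844 with no filter, to 2562 and 3000 with the filter at 5 FPKM, to 2845 and 2945 without ETS1 replicate 2, and to 4832 and 4259 by voom on recovered reads.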
